A study of Mus musculus with 6 samples.

Results

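The 2′-5′-oligoadenylate synthetase (OAS) family was followed in B16F10 mouse melanoma cells depleted of OSGEP. The 8 family members were taken by gene symbol from the table of estimated counts, which lists 55487 genes: Oas1a, Oas1b, Oas1c, Oas1g, Oas2, Oas3, Oasl1 and Oasl2. No threshold on expression was applied in taking them, but these 8 were chosen with earlier results of these data known. The related genes Oas1d, Oas1e, Oas1f and Oas1h, with at most 1 count in any library, were not among them. The groups were control cells carrying a scramble shRNA (shCtr, n = 3) and cells carrying 1 hairpin against OSGEP, numbered 2 by the study (shOSGEP, n = 3). OSGEP carries the catalytic activity of KEOPS, the protein complex behind the t6A modification of tRNAs. All 6 libraries came from wild-type B16F10 cells infected with lentivirus, with 3 independent infections per group, and polyA RNA was sequenced. A single hairpin was used, so an effect of losing OSGEP and an effect of that hairpin cannot be told apart in these libraries. The comparison asked whether the OAS genes, a branch of the antiviral response, had a different mRNA level after OSGEP depletion.

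OAS enzymes bind double-stranded RNA and join ATP into short chains with 2′-5′ bonds, called 2-5A. These chains act as a second messenger of the antiviral response and lead to the breakdown of RNA. The genes are induced by interferon through elements in their promoters that bind interferon regulatory factors such as IRF9, and they are best known from infected cells and from cells that carry misplaced double-stranded RNA of their own.

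In mouse, the Oas1, Oas2 and Oas3 genes lie together on chromosome 5, and Oasl1 and Oasl2 lie together elsewhere on the same chromosome. The 100-base stretches that follow come from RefSeq promoter windows on GRCm38.p6 and lie before the start site. They are given because they hold, in capitals, the matches to GAAANNGAAA, the core of an interferon-stimulated response element, which was searched on both strands with overlapping matches allowed. Each sequence reads 5′ to 3′ on the strand of its gene, which is the minus strand for all 4.
Oas1a, chr5:120907526-120907625: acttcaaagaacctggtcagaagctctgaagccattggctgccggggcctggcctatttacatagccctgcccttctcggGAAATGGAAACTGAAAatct
Oas1g, chr5:120887614-120887713: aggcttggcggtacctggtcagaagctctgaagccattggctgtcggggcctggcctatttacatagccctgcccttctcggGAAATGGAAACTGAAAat
Oas1c, chr5:120812535-120812634: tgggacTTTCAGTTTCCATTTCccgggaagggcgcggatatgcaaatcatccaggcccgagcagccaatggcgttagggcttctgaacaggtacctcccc
Oas3, chr5:120777665-120777764: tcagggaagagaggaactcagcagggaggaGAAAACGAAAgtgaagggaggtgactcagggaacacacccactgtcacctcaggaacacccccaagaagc

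RefSeq windows, which run from 250 bases before to 50 bases after the start site, were given for 6 of the 8 members. Entries for Oas1b and Oas2 were not among them. Oas1a, Oas1g and Oas1c each held 2 overlapping matches, which together cover the 16 bases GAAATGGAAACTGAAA. This run lay 20 to 5 bases before the start of Oas1a and 18 to 3 bases before the start of Oas1g. In Oas1c it was found on the other strand, 114 to 99 bases before the start. That place is also 7 to 22 bases before the annotated start of Oas1b, since Oas1b and Oas1c point away from each other and their starts are 121 bases apart. Oas3 held 1 match, 75 bases before its start. The windows of Oasl1 and Oasl2 held none, which says only that these letters are not in those windows. Among all 32851 windows, 1131 (3.44%) held at least 1 match, and 978 (2.98%) held one before the start site. The full run of 16 bases was found in 7 windows (0.0213%), those of Oas1a, Oas1c and Oas1g and 2 each of Apol9a and Apol9b. A match is a stretch of letters and was not tested for binding.

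**Figure D1:**
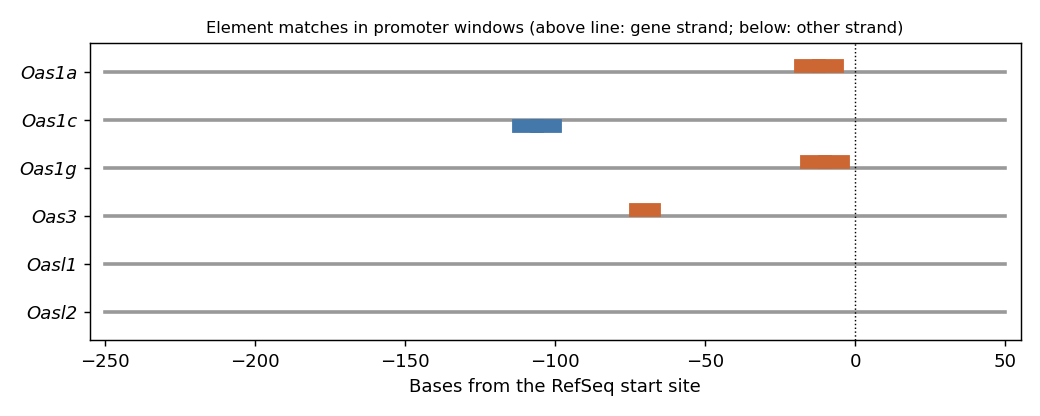
Positions of GAAANNGAAA matches in the RefSeq promoter windows of 6 members. The horizontal axis gives bases from the start site (dotted line), boxes above a line are matches on the strand of the gene and boxes below it are on the other strand. The matches of Oas1a and Oas1g sit directly before the start, those of Oas1c and Oas3 sit farther upstream, and Oasl1 and Oasl2 have none.

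The near-identical promoters of Oas1a and Oas1g are matched by near-identical transcripts, and this limits how their reads can be told apart. Where the shown stretches overlap, 89 of 96 aligned bases were the same (92.7%). Of all 31-base words in the longest annotated transcript of Oas1a, 68.8% occurred in transcripts of another gene on either strand, almost all of them in Oas1g (68.7%). For Oas1g the share was 65.4%. At 100 bases, the length of 1 read, it was 40.9% for Oas1a and 38.2% for Oas1g, and the longest identical stretch ran over 526 bases. Oas1c shared 26.8% of its 31-base words, mainly with Oas1e, Oas1d and the overlapping Gm43069, and 4.5% of its 100-base words. The shares at 31 bases were 7.4% for Oas1b, 3.3% for Oas3, 0.5% for Oasl2, 0.1% for Oasl1 and 0.0% for Oas2. Reads that match several copies were divided among them by estimated likelihood, so the values of Oas1a and Oas1g are uncertain as single genes, and their sum is given as well. The spans of Oas1c, Oas2 and Oasl1 overlap a gene on the opposite strand (Gm43069, Gm43068 and Gm13822), and the library kit was not stated to keep the strand.

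Depth ranged from 18915587 to 29487384 counts per library, and 12669 genes passed the filter on low counts (edgeR's filterByExpr). Values are given as CPM, counts scaled to a library of 1000000 after TMM scaling, in order of replicate number. The replicate 2 libraries of both groups stood apart from the others: within shCtr, replicates 1 and 3 correlated at 0.966 in log2 CPM over genes, whereas replicate 2 correlated with them at 0.776 and 0.857. TMM scaling gave shCtr replicate 2 a factor of 0.690 and the other libraries factors of 1.04 to 1.14, and transcripts of 49% to 57% GC, the range of the OAS members, were shifted upward in it by a median of 0.66 on the log2 scale (5238 genes). In shOSGEP replicate 2 that median was 0.21. Results are therefore given with and without these libraries.

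All 7 melanocyte lineage markers were expressed, at a summed level of 17038 to 29599 CPM for shCtr and 3551 to 18083 CPM for shOSGEP, lowest in shOSGEP replicate 2. Of 7 leukocyte markers, 2 reached 10 counts in some library, Ptprc, Adgre1, Itgam and Cd3e were at 0 in every library, and the sum was 1.52 to 1.82 CPM for shCtr and 1.53 to 3.64 CPM for shOSGEP, highest in shOSGEP replicate 2. Of 3 fibroblast markers 1 reached 10 counts, Dcn was at 0, and the sum was 0.639 to 2.68 CPM for shCtr and 1.57 to 4.11 CPM for shOSGEP. No endothelial marker of 3 reached 10 counts, Cdh5 and Kdr were at 0, and the sum was 0 to 0.212 CPM for shCtr and 0.0930 to 0.310 CPM for shOSGEP. The part of these marker levels in the OAS results was not tested. In bulk RNA, a change in the number of cells that express a gene and a change in RNA per cell cannot be told apart. Osgep itself was lower in every shOSGEP library (0.542 to 5.52 CPM) than in any shCtr library (20.6 to 58.6 CPM), in the direction of the labels, and was lowest in shOSGEP replicate 2.

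Of the 8 members, 7 were expressed highly enough to be tested and all 7 had a positive Log2FC (log2 fold change, shOSGEP against shCtr), but none reached an adjusted p under 0.05. No gene of the 12669 did (0%) by edgeR's quasi-likelihood F-test after Benjamini-Hochberg adjustment, in which 256 genes had an unadjusted p under 0.05. The 7 Log2FC ran from 0.15 to 2.93 with a median of 1.18, whereas the median of all genes tested was -0.03 and 47.3% of genes were above 0. At the study's threshold, an unadjusted p under 0.05 with a Log2FC beyond 0.5, 2 members were called higher (Oas2 and Oasl2) and 0 lower, against 1.59% of all genes called higher. These same 2 were the members whose groups did not overlap, against 3.49% of all genes without overlap and higher in shOSGEP. In 6 of the 7 members shOSGEP was higher within each of the 3 replicate numbers, against 17.6% of all genes. The direction depended on which replicate 2 library was left out. Without shOSGEP replicate 2, with shCtr replicate 2 still in the fit, 3 of the 7 members had a positive Log2FC and the median was -0.19. Without shCtr replicate 2 alone, all 7 were positive with a median of 2.55. Without both replicate 2 libraries, 6 members were tested and all 6 were positive, with a median of 0.95. The calls rested on single libraries. At the study's threshold 5 members were called higher without shCtr replicate 2 (Oas1a, Oas1b, Oas1g, Oas2 and Oasl2), against 2.06% of all genes in that fit. The number called was 1 without shCtr replicate 1 (2.06% of all genes), 0 without shCtr replicate 3 (0.818%) and 0 without shOSGEP replicate 2 (0.416%). It was 3 with the replicate number as a block (Oas1b, Oas2 and Oasl2), against 2.32% of all genes. Members without overlap numbered 4 without shCtr replicate 2, against 8.25% of all genes. The members share an induction pathway and in part their reads, so they are not independent of each other. Members that were barely detected in shCtr passed the filter mainly through their shOSGEP libraries: the level that the filter asks for in 3 libraries, 0.454 CPM, was reached by Oas1b and Oas2 in 1 shCtr library each.

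**Figure D2:**
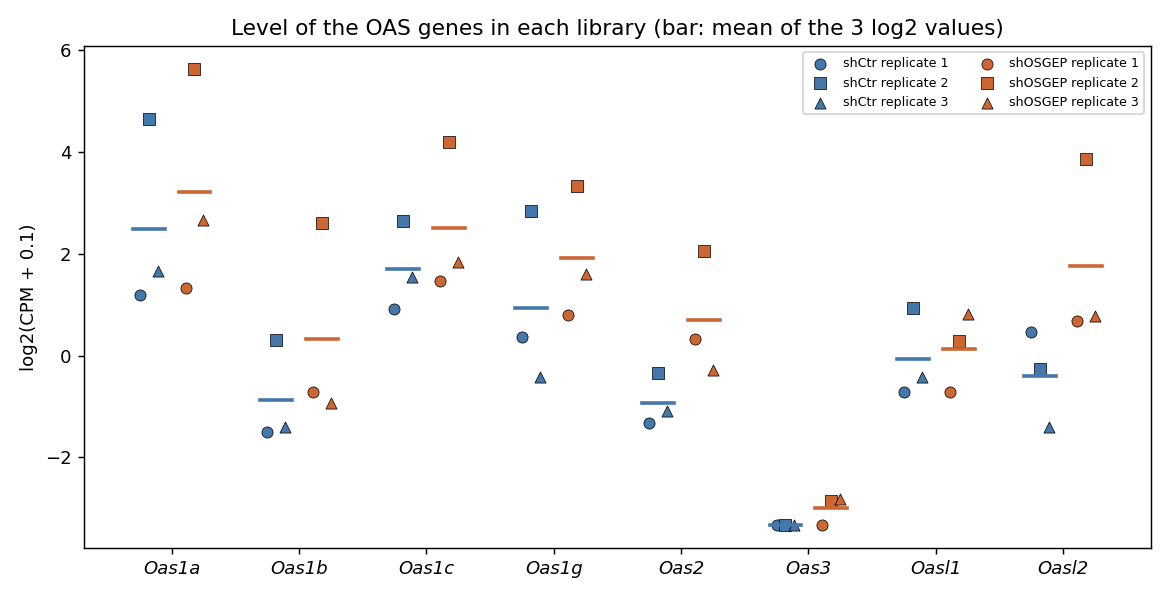
Level of each OAS gene in the 6 libraries, as log2(CPM + 0.1), with circles, squares and triangles for replicates 1, 2 and 3 and a bar at the mean of the 3 log2 values of a group. Squares of the OAS genes are mostly at the top of their group, and of the 7 tested genes only Oas2 and Oasl2 have every shOSGEP library above every shCtr library.

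Oas2 encodes an OAS protein built of repeated synthetase units. The gene (ENSMUSG00000032690) lies at 120730333 to 120749853 of chromosome 5 in GRCm38, on the minus strand. Its levels were 0.297, 0.688 and 0.369 CPM for shCtr (7, 14 and 8 counts) and at 1.16, 4.03 and 0.721 CPM for shOSGEP (25, 104 and 17 counts). Every shOSGEP library was above every shCtr library, although shOSGEP replicate 3 exceeded shCtr replicate 2 by little. The means were 0.452 ± 0.208 and 1.97 ± 1.80 CPM (SD, n = 3). The Log2FC was 2.12 (SE 0.804), with an unadjusted p of 0.0289 and an adjusted p of 1.00 in edgeR. A two-sided exact permutation test that did not use the replicate numbers gave p = 0.1, the lowest possible with 3 libraries against 3. Groups that do not overlap give this value by construction, so it adds nothing to the lack of overlap. Within replicate numbers 1, 2 and 3 the log2 ratios were 1.70, 2.41 and 0.82. The Log2FC was 1.89 (unadjusted p 0.0847 in edgeR) without shCtr replicate 1, 1.99 (unadjusted p 0.0984) without shCtr replicate 3, 1.07 (unadjusted p 0.174) without shOSGEP replicate 2 and 1.48 (unadjusted p 0.0692 in edgeR) without both replicate 2 libraries. With the replicate number as a block it was 1.86 (unadjusted p 0.0139 in edgeR). At a share of 0.0% of its 31-base words, Oas2 has no reads to divide with its paralogues.

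Oasl2 encodes an OAS-like protein that carries ubiquitin-like domains and, in mouse, still makes 2-5A. It lies on the plus strand of chromosome 5, from 114896936 to 114912234 (ENSMUSG00000029561). Its levels were 1.27, 0.737 and 0.277 CPM for shCtr (30, 15 and 6 counts) and 1.49, 14.4 and 1.61 CPM for shOSGEP (32, 372 and 38 counts). The groups did not overlap, but the lowest shOSGEP library stood only slightly above the highest shCtr library, and shOSGEP replicate 2 was 9.30-fold above the mean of the other shOSGEP libraries. The means were 0.763 ± 0.499 and 5.84 ± 7.43 CPM (SD, n = 3), and the Log2FC of 2.93 (SE 1.06) was the highest of the family (unadjusted p 0.0242 and adjusted p 1.00 in edgeR, exact permutation p 0.1). Within replicate numbers the log2 ratios were 0.21, 4.14 and 2.22. Unlike the Oas1 genes, Oasl2 was not raised in shCtr replicate 2, which at 0.737 CPM lay between the other shCtr libraries. The Log2FC was 2.53 (unadjusted p 0.0730 in edgeR) without shCtr replicate 3 and 1.04 (unadjusted p 0.221) without shOSGEP replicate 2, and without both replicate 2 libraries it was 0.99 (unadjusted p 0.262 in edgeR).

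Oasl1, the neighbour of Oasl2, encodes a protein that lacks synthetase activity and restrains translation of the Irf7 mRNA. It lies on the plus strand from 114923240 to 114937915 (ENSMUSG00000041827). It was at 0.510, 1.82 and 0.646 CPM for shCtr and at 0.512, 1.12 and 1.65 CPM for shOSGEP, with 11 to 39 counts in a library. The groups overlapped, and shCtr replicate 2 was the highest of all libraries. The means were 0.991 ± 0.720 and 1.10 ± 0.572 CPM (SD, n = 3), and the Log2FC of 0.15 (SE 0.719) was the lowest of the family (unadjusted p 0.839 in edgeR). Its log2 ratios within replicate numbers were 0.00, -0.65 and 1.25, and Oasl1 was the 1 member that did not point the same way in each.

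Oas1a encodes an active synthetase and took the most counts of the family in 5 of the 6 libraries. It lies on the minus strand from 120896256 to 120907521 (ENSMUSG00000052776). It was at 2.17, 24.9 and 3.04 CPM for shCtr (51, 507 and 66 counts) and at 2.42, 49.4 and 6.19 CPM for shOSGEP (52, 1275 and 146 counts). Both replicate 2 libraries stood well above all others, and shCtr replicate 2 exceeded shOSGEP replicates 1 and 3. The spread within a group was larger than the difference between groups (10.0 ± 12.9 against 19.3 ± 26.1 CPM, SD, n = 3), and the Log2FC was 0.95 (SE 1.24, unadjusted p 0.468 in edgeR). Within replicate numbers the log2 ratios were 0.15, 0.98 and 1.00. With the replicate number as a block, which sets aside the spread shared by same-numbered libraries, the Log2FC was 0.74. Its SE was then 0.347, with an unadjusted p of 0.0816 in edgeR, not past the study's threshold. Without shOSGEP replicate 2, with shCtr replicate 2 still in the fit, the Log2FC turned to -1.17, without shCtr replicate 2 it was 2.89 (unadjusted p 0.0428 in edgeR), and without both replicate 2 libraries it was 0.73.

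Oas1g encodes another active synthetase, on the minus strand from 120876142 to 120887613 (ENSMUSG00000066861). Its levels were 1.19, 7.08 and 0.646 CPM for shCtr (28, 144 and 14 counts) and 1.63, 10.0 and 2.93 CPM for shOSGEP (35, 258 and 69 counts). Both replicate 2 libraries were again the highest, and the groups overlapped. The Log2FC was 0.71 (SE 1.01, unadjusted p 0.503 in edgeR), and the log2 ratios within replicate numbers were 0.43, 0.49 and 2.04. It turned to -0.34 without shOSGEP replicate 2, and was 2.40 (unadjusted p 0.0272 in edgeR) without shCtr replicate 2 and 1.31 with both left out. With the replicate number as a block the Log2FC was 1.00 (SE 0.506, unadjusted p 0.101 in edgeR). When Oas1a and Oas1g were summed, a step chosen after seeing the data, the levels were 3.36, 32.0 and 3.69 CPM for shCtr and 4.05, 59.4 and 9.12 CPM for shOSGEP. The summed Log2FC was 0.90, between those of the separate genes, with log2 ratios of 0.26, 0.89 and 1.29.

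Oas1b is the gene known for resistance to flaviviruses, and it is annotated as a polymorphic pseudogene because many laboratory strains carry a shortened copy. It lies on the plus strand from 120812635 to 120824163 (ENSMUSG00000029605). It was at 0.255, 1.13 and 0.277 CPM for shCtr (6, 23 and 6 counts) and at 0.512, 6.01 and 0.424 CPM for shOSGEP (11, 155 and 10 counts). Outside replicate 2 each library held at most 11 counts, and shCtr replicate 2 exceeded shOSGEP replicates 1 and 3. The Log2FC was 2.06 (SE 1.16, unadjusted p 0.111 in edgeR) with log2 ratios within replicate numbers of 0.81, 2.32 and 0.49. With the replicate number as a block it was 1.47 (unadjusted p 0.0462 in edgeR), past the study's threshold, as was the fit without a filter on low counts (2.06, unadjusted p 0.0425 in edgeR). It was 3.10 without shCtr replicate 2 and -0.21 without shOSGEP replicate 2, and without both replicate 2 libraries the gene no longer passed the filter.

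Oas1c, the divergent neighbour of Oas1b, lies on the minus strand from 120800194 to 120812514 (ENSMUSG00000001166). Its levels were 1.78, 6.14 and 2.81 CPM for shCtr (42, 125 and 61 counts) and 2.65, 18.2 and 3.48 CPM for shOSGEP (57, 469 and 82 counts). The groups overlapped, and both replicate 2 libraries were the highest, as for Oas1b. The Log2FC was 1.18 (SE 0.854, unadjusted p 0.204 in edgeR), and the log2 ratios within replicate numbers were 0.55, 1.55 and 0.30. Leaving out shOSGEP replicate 2 gave -0.19, leaving out shCtr replicate 2 gave 1.82 and leaving out both gave 0.42. With the replicate number as a block the Log2FC was 0.82 (SE 0.419, unadjusted p 0.101 in edgeR). Over the 6 libraries the log2 CPM of Oas1b and Oas1c had a Pearson r of 0.98 (n = 6), the highest of any pair of members. This is a description of libraries in which replicate 2 of each group stands apart. The element in capitals in the Oas1c sequence lies between the annotated starts of this pair.

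All 4 Oas1 genes summed, which leaves the division of shared reads among them aside, gave 5.40, 39.3 and 6.78 CPM for shCtr and 7.21, 83.6 and 13.0 CPM for shOSGEP. The summed level was higher in shOSGEP within each replicate number (log2 ratios 0.41, 1.09 and 0.93), but the groups overlapped, since shCtr replicate 2 was above shOSGEP replicates 1 and 3. The means were 17.2 ± 19.2 and 34.6 ± 42.5 CPM (SD, n = 3), with a Log2FC of 1.01. Oasl1 and Oasl2 summed gave 1.78, 2.56 and 0.922 CPM for shCtr and 2.00, 15.5 and 3.27 CPM for shOSGEP, also with overlap, and a Log2FC of 1.98.

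Oas3 encodes the longest OAS protein, which senses long double-stranded RNA and is the main maker of 2-5A in human cells. It lies between Oas2 and the Oas1 genes, on the minus strand from 120753098 to 120777661 (ENSMUSG00000032661). It had 0, 0 and 0 counts in shCtr and 0, 1 and 1 counts in shOSGEP. All 6 libraries are under the floor of 3 counts per library (0.116 to 0.147 CPM), so no fold is given. Its mRNA was thus not detectable at this depth. The promoter window shown above holds a single match of 10 bases, where those of Oas1a, Oas1c and Oas1g hold the run of 16 bases. The bearing of these matches on expression was not tested. The Oas1d, Oas1e, Oas1f and Oas1h genes had at most 1 count in any library.

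**Figure D3:**
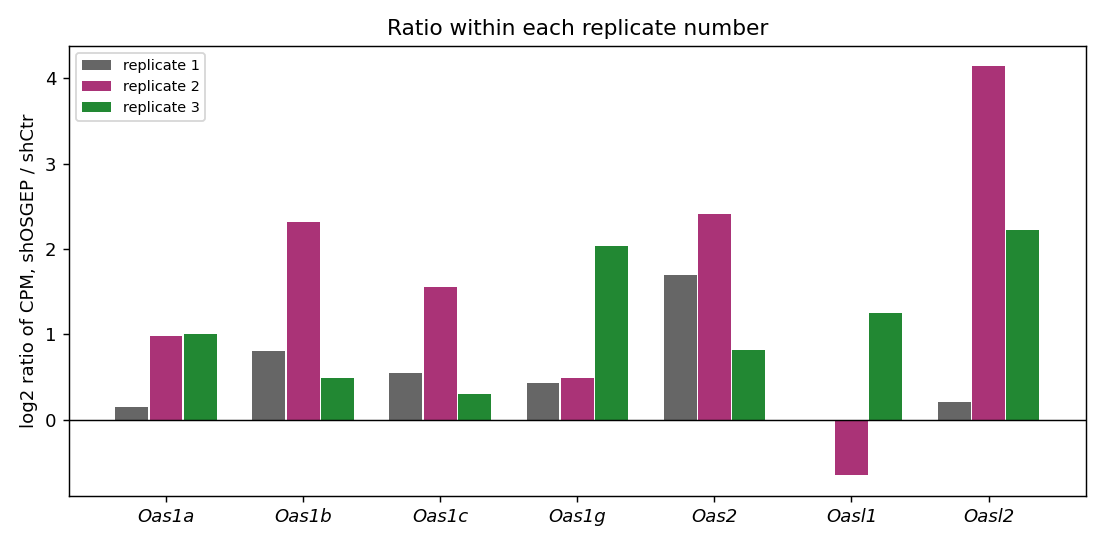
Log2 ratio of CPM, shOSGEP over shCtr, within replicate numbers 1 (grey), 2 (purple) and 3 (green) for the 7 tested OAS genes. The bars are single ratios without error; they are above 0 throughout except for Oasl1, where replicate 1 is at 0.00 and replicate 2 at -0.65, and replicate 2 has the tallest bar for Oas1b, Oas1c, Oas2 and Oasl2.

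Levels between genes were compared per kilobase of the longest annotated transcript of each gene, a coding one where there was one. In shCtr, on this scale, Oas1a had a mean of 5.33 CPM per kilobase (1.15 to 13.2 over libraries), followed by Oas1c at 1.56, Oas1g at 1.50, Oasl1 at 0.455, Oas1b at 0.302, Oasl2 at 0.244 and Oas2 at 0.114. In shOSGEP the order began again with Oas1a at 10.3 (1.28 to 26.2), Oas1c at 3.54 and Oas1g at 2.45, and Oasl2 stood next at 1.87, ahead of Oas1b at 1.26, Oasl1 at 0.503 and Oas2 at 0.498. The ranges over libraries of neighbours in each order overlapped. All genes were measured in the same libraries, and Oas1a and Oas1c moved together across them (Pearson r of log2 CPM 0.95, n = 6). This overlap therefore does not show that neighbours had the same level. Some genes farther apart had no overlap: in shCtr every library of Oas1a was above every library of Oasl1, Oas1b, Oasl2 and Oas2.

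The 8 members together held 176, 865 and 175 counts in shCtr and 223, 2663 and 402 in shOSGEP, which is 7.48, 42.5 and 8.07 CPM against 10.4, 103 and 17.1 CPM. Oas1a, Oas1c and Oas1g took most of these counts in every library. The share of Oas1a was 29.0%, 58.6% and 37.7% in shCtr and 23.3%, 47.9% and 36.3% in shOSGEP, highest in replicate 2 of each group. The share of Oasl2 was 17.0%, 1.73% and 3.43% in shCtr and 14.3%, 14.0% and 9.45% in shOSGEP, so the replicate 2 libraries, both high in Oas1a, differed widely in Oasl2.

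**Figure D4:**
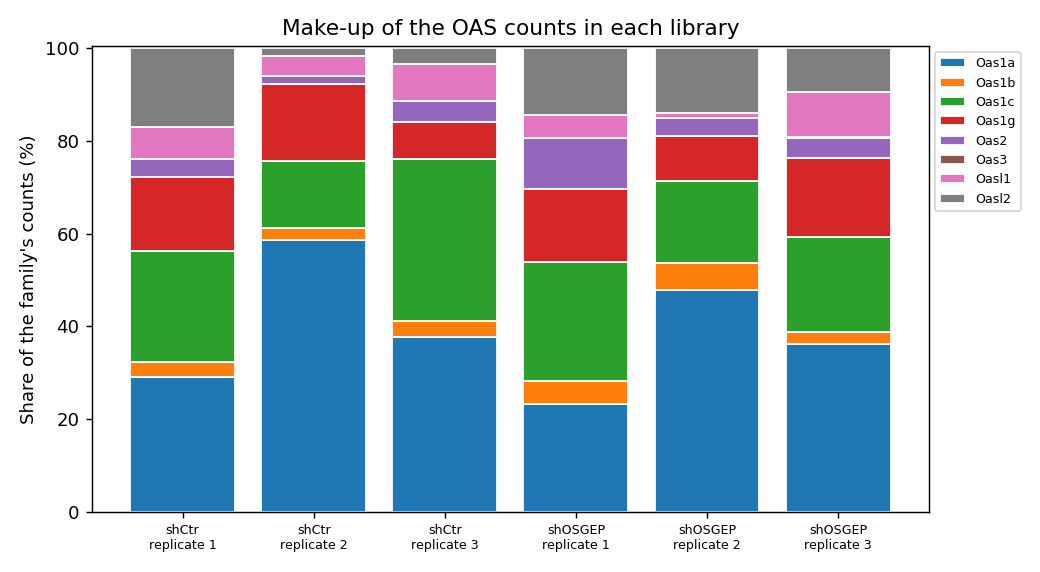
Share of the OAS counts taken by each member in each of the 6 libraries, in percent of the family's counts in that library (175 to 2663 counts). Oas1a takes the largest share except in shOSGEP replicate 1, where Oas1c does, and the share of Oasl2 in shCtr replicate 2 is 1.73% against 14.0% in shOSGEP replicate 2.

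High values of replicate 2 set the tested OAS genes other than Oasl1 apart from most genes in shOSGEP, and Oas1a and Oas1g in both groups. In shOSGEP replicate 2, Oas1a was 11.5-fold, Oas1b 12.8-fold, Oas1c 5.93-fold, Oas1g 4.39-fold and Oas2 4.28-fold above the mean of the other shOSGEP libraries, whereas Oasl1 was 1.04-fold. Among all genes tested, the deviation of that library exceeded 99.9% of genes for Oas1a and between 98.4% and 99.8% for Oas1b, Oas1c, Oas1g, Oas2 and Oasl2. For Oasl1 it exceeded 59.6%. In shCtr replicate 2 the deviations of Oas1a and Oas1g also exceeded 99.7% and 99.5% of genes. Those of Oas1b, Oasl1, Oas1c, Oas2 and Oasl2 exceeded 91.7%, 86.6%, 84.2%, 70.9% and 54.9%. These ranks are over all genes and do not allow for the upward shift of genes of 49% to 57% GC in that library. The control library of replicate 2 thus had high Oas1a and Oas1g without a matching Oasl2. Between members, Pearson correlations of log2 CPM ranged from 0.18 (Oasl1 and Oasl2) to 0.98 with a median of 0.74 (n = 6 libraries), given as a description.

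**Figure D5:**
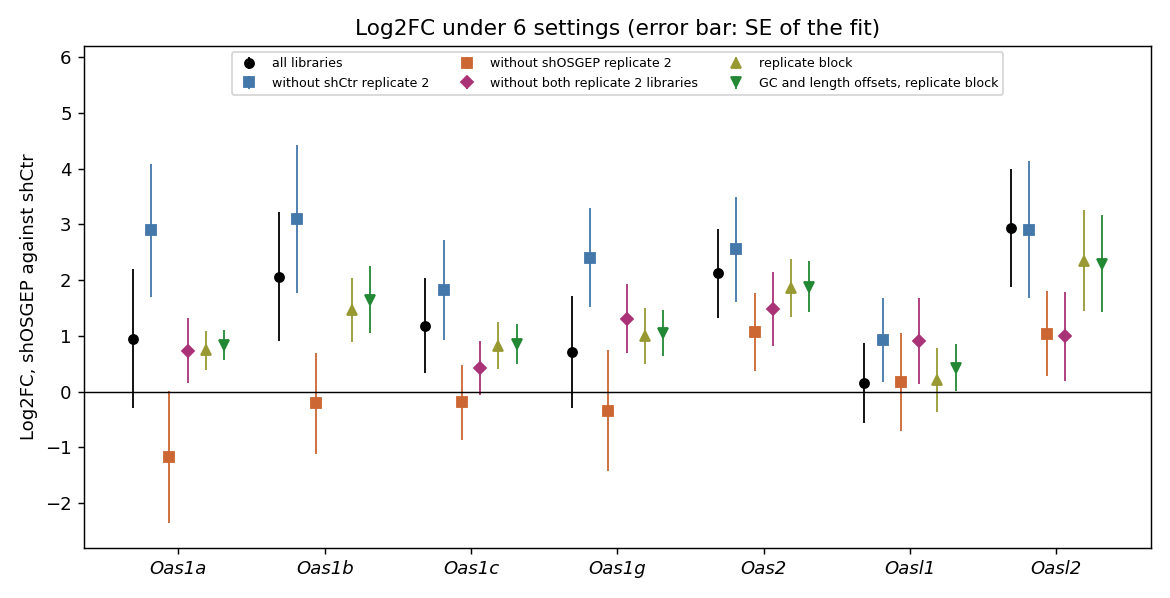
Log2FC of the 7 tested OAS genes under 6 settings, with error bars of 1 SE of the fit. Oas2, Oasl2 and Oasl1 stay above 0 under all 6 settings, Oas1a, Oas1b, Oas1c and Oas1g fall below 0 without shOSGEP replicate 2, and Oas1b has no point without both replicate 2 libraries because it did not pass the filter.

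Genes that act on 2-5A were examined alongside. Pde12 and Akap7 encode phosphodiesterases that degrade it. Pde12 was at 21.8, 4.77 and 14.4 CPM for shCtr and at 19.2, 16.5 and 15.1 CPM for shOSGEP (Log2FC 0.31), and Akap7 at 20.5, 3.29 and 11.5 against 23.6, 8.91 and 13.8 CPM (Log2FC 0.39). In both genes the groups overlapped and the lowest library was shCtr replicate 2, the control library with the highest Oas1a. Whether those low values come from the shifted transcript composition of that library was not tested.

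Upstream of the OAS genes, 10 of 11 listed interferon signalling genes were tested and 8 had a positive Log2FC (47.3% of all genes did). The median of these 10 was 0.26. At the study's threshold 0 were called, beside 1.59% of all genes called higher. In 1 gene the groups did not overlap, with shOSGEP higher, beside 3.49% of all genes. Irf9, whose product binds the interferon-stimulated element, was at 7.14, 17.5 and 3.87 CPM for shCtr and at 13.5, 58.2 and 11.1 CPM for shOSGEP, with overlap (Log2FC 1.54, SE 0.816, unadjusted p 0.0951 in edgeR). Irf7, whose mRNA is the target of OASL1, was at 0.170, 1.87 and 0.138 against 0.419, 7.25 and 0.636 CPM (Log2FC 1.94, unadjusted p 0.186 in edgeR). Its groups also overlapped, and its counts were 4, 38 and 3 for shCtr and 9, 187 and 15 for shOSGEP. The count of shCtr replicate 3 was at the floor, and 1 shCtr library reached the level that the filter asks for. Irf9 and Irf7 were highest in replicate 2 of each group, as the Oas1 genes were, and each was higher in shOSGEP within all 3 replicate numbers. Ifnb1, which encodes interferon beta, had 0 counts in all 6 libraries, under the floor of 3 counts.

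The other sensors of double-stranded RNA and other interferon-stimulated genes were counted in the same way, on lists that share their pathway with the OAS genes. Of 8 sensors and responders 7 were tested, 6 had a positive Log2FC (median 0.64), 2 passed the study's threshold as higher (1.59% of all genes did) and 3 had no overlap (3.49% of all genes), these being Ddx58, Dhx58 and Ifih1 with Log2FC of 1.72, 2.57 and 1.04. Of 16 other interferon-stimulated genes 15 were tested, 14 had a positive Log2FC (median 1.31), and 4 passed the study's threshold as higher, beside the same 1.59% of all genes. The smallest unadjusted p values in edgeR were those of Ifit1 (Log2FC 1.88, SE 0.634, p 0.0175), Ifit3 (Log2FC 1.20, SE 0.464, p 0.0313) and Mx2 (Log2FC 2.32, SE 0.976, p 0.0434). The groups of Mx2 overlapped: shOSGEP replicate 3 (0.552 CPM) was below shCtr replicates 1 and 2 (1.02 and 0.885 CPM). Ifit1 was at 9.01, 2.95 and 7.06 CPM for shCtr and at 18.1, 39.4 and 12.4 CPM for shOSGEP. It had no high value in shCtr replicate 2, as Oasl2 had none, whereas the Oas1 genes did. No gene of these lists reached an adjusted p under 0.05.

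The 5 genes whose pattern over the 6 libraries was most like the mean log2 CPM of the tested OAS members were Asrgl1, Apol9b, Apol9a, Fam214b and Gdf15, with Pearson r from 0.996 to 1.000 (n = 6). They were picked as the highest r among all non-member genes tested, in libraries where replicate 2 of each group stands apart. The r values are therefore a description only, and they compare pattern and not level or size of change. The member mean was -0.11, 1.53 and -0.25 in shCtr and 0.44, 3.13 and 0.91 in shOSGEP. Apol9a was at 0.595, 5.06 and 0.599 CPM for shCtr and at 1.67, 26.2 and 2.21 CPM for shOSGEP (Log2FC 2.27), and Apol9b at 1.02, 3.83 and 1.11 against 1.67, 15.9 and 2.33 CPM (Log2FC 1.74). Gdf15, which encodes a secreted stress cytokine, was at 9.90, 21.4 and 7.75 against 12.0, 59.1 and 17.0 CPM (Log2FC 1.17). In all 3 the groups overlapped and replicate 2 was the highest library of each group. Apol9a and Apol9b share 69.7% and 65.1% of their 31-base words with each other, so their values are not separate measurements. Apol9a and Apol9b were the non-members whose RefSeq windows hold the 16-base run printed above. It lies 59 to 44 bases before the nearer start of Apol9a and 37 to 22 bases before that of Apol9b. Asrgl1 (r 1.000, Log2FC 0.73), Fam214b (r 0.996, Log2FC 0.79) and Gdf15 were not among the genes whose windows hold it. Whether the run bears on the likeness was not tested.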

How the data were processed

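PolyA RNA of 3 shCtr and 3 shOSGEP libraries was sequenced in paired reads of 100 bases. According to their methods and processing notes, the authors trimmed reads with TrimGalore, aligned them to GRCm38 with STAR 2.6.1d and quantified genes with Salmon 1.4.0. The notes also name edgeR 3.14 and DESeq2 1.30. The deposited values are estimated counts per gene, written as whole numbers without normalization. The annotation release is not given in the sources used here. Salmon divides reads shared by paralogues by likelihood. Of the 55487 genes, 33666 had no count.

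Groups and replicate numbers came from the labels. Genes were kept by filterByExpr (minimum count 10, minimum total 15) and libraries were scaled by TMM. edgeR's quasi-likelihood test (edgeR 4.0.16, limma 3.58.1, R 4.3.3) was run two-sided and with no block, and p-values were adjusted by Benjamini-Hochberg over all genes tested. Scripts were tested on simulated data. For single genes an exact permutation test of the difference in mean log2 CPM was added, without use of the replicate numbers. A floor of 3 counts covers counting error only. GENCODE M21 (GRCm38) gave positions and lengths for 99.4% of identifiers and 99.9% of those tested, and RefSeq gave promoter windows on GRCm38.p6.

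The members and gene lists were chosen with earlier results of these data known. Named were all members, Osgep, up to 3 genes per list with the smallest unadjusted p, and the 5 genes most alike over libraries. Items withheld from the text are not reported here. Ifnb1 falls outside that rule and was named after its values were seen. Deviations from group means of same-numbered libraries correlated across genes at 0.811, 0.557 and 0.196 for replicates 1, 2 and 3, all over the limit of 0.1, so the numbers were treated as pairing libraries, although 2 pairs of different numbers were also over it, at 0.491 and 0.138. What a number marks is not stated. Alternatives were DESeq2 1.42.0, limma-voom, other scalings and filters, a replicate block, GC and length offsets (natural splines with 5 degrees of freedom each), and leaving out libraries.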

Additional observations from a re-analysis of the deposited data

How the results depend on the processing

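No member reached an adjusted p under 0.05 under any of 18 alternatives. Of 130 Log2FC values of members under alternatives, 122 kept direction and 8 turned direction. These values include those of summed paralogues, which were repeated for each gene of a sum and carry no p. The cause of the changes below was not tested unless the setting itself shows it. At the study's threshold 2 members were called higher (1.59% of all genes). This count was 0 with at least 10 counts in every library, where only 4 members were tested (1.48%), and 4 with GC and length offsets and the replicate block (3.89%). It was 3 with limma-voom, adding Oas1g (3.35%), and 3 without a filter, adding Oas1b (1.97%). It ran from 0 to 5 when libraries were left out, with 5 without shCtr replicate 2 (2.06%) and 1 without shCtr replicate 1 (2.06%). It was 0 without shCtr replicate 3 (0.818%), shOSGEP replicate 2 (0.416%) or both replicate 2 libraries (1.26%). It was 1 without both libraries of replicate 1 (1.48%) or of replicate 3 (0.825%). The number of members without overlap was 2 with all libraries, beside 3.49% of all genes without overlap and higher in shOSGEP. It was 0 with at least 10 counts in every library (3.22%), where Oas2 and Oasl2 were not tested. It was 1 with the offsets with and without block (6.47%), 4 without shCtr replicate 2 (8.25%) and 3 without both replicate 2 libraries (9.90%). The median Log2FC of the members, 1.18, was -0.19 without shOSGEP replicate 2, 2.55 without shCtr replicate 2 and 0.95 without both.

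Without shOSGEP replicate 2 the Log2FC was -1.17 for Oas1a, -0.21 for Oas1b, -0.19 for Oas1c and -0.34 for Oas1g. Without shCtr replicate 2 it was 2.89, 3.10, 1.82 and 2.40 for these genes and 0.93 for Oasl1, the highest values with a library left out. The Log2FC of Oasl1 was -0.16 without shCtr replicate 1, -0.27 without shOSGEP replicate 3, -0.08 without shCtr replicate 3 and -0.51 with both replicate 3 libraries left out. Oas2 ran from 1.07 to 2.55 and Oasl2 from 0.99 to 3.98 over their alternatives. In DESeq2 Osgep was at a Log2FC of -3.31 with adjusted p 0.0340 (range over its alternatives 0.0340 to 1.00).

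The replicate block, fitted because the numbers were treated as pairing the libraries, gave 1.86 for Oas2 and 2.35 for Oasl2 (unadjusted p 0.0139 and 0.0454 in edgeR). It brought Oas1b past the study's threshold (1.47, unadjusted p 0.0462 in edgeR), for 3 members in all against 2.32% of all genes, and changed no call of a member at an adjusted p under 0.05. Over all genes, the split past the study's threshold was 202 higher and 54 lower, 454 and 238 with the offsets, 493 and 376 with offsets and block, 424 and 136 with limma-voom, 430 and 169 without a filter, and 54 and 13 without shOSGEP replicate 2. At an adjusted p under 0.05, 17 genes were called by DESeq2 and 3 by limma-voom. Upper-quartile scaling put the median of all genes at 0.07. Depth limits Oas3, Oas1b, Oas2 and Oasl2 most, with 0 to 30 counts in each shCtr library.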
